A study of Homo sapiens with 12 samples.

Results

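The siRNA-by-line interaction compared the response to siINTS11 in U2OS-AsiSI cells with the response in parental U2OS cells, gene by gene, over all 12 of the 12 libraries of the series. It is the log2 change from siCtrl to siINTS11 in U2OS-AsiSI minus the same change in U2OS, so a value above 0 means that a gene moved higher under siINTS11 in U2OS-AsiSI than in U2OS. Nascent RNA was profiled by TT-seq, in which RNA made during a short pulse of 4-thiouridine is captured and sequenced. U2OS is an established human osteosarcoma line. The 4 groups held 3 libraries each: U2OS cells with siCtrl, U2OS cells with siINTS11, U2OS-AsiSI cells with siCtrl and U2OS-AsiSI cells with siINTS11, all at 48 h after transfection. Cells labelled U2OS-AsiSI carry AsiSI-ER, a restriction enzyme fused to the oestrogen receptor that enters the nucleus and cuts DNA when 4-hydroxytamoxifen (OHT) is added. Both U2OS-AsiSI groups had OHT for 1 h, and no OHT is given for the U2OS groups. Line, nuclease and OHT therefore differ together, and the interaction cannot be told apart among them. The labels do not say whether U2OS-AsiSI is 1 clone, nor whether replicates were separate cultures, so p-values measure the spread between these libraries only.

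INTS11 is the endonuclease of Integrator, a complex that cuts RNA emerging from RNA polymerase II. Integrator forms the 3' ends of small nuclear RNAs and also ends transcription close to many promoters. DNA breaks activate p53, a transcription factor that raises genes of cell-cycle arrest, DNA repair and cell death. Breaks were not measured here, and a cause of differing levels between the lines was not tested. An interaction asks whether the log2 change with the siRNA is equal in both lines. The siCtrl levels are part of it, so a gene whose lines differ only with siCtrl also has an interaction.

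Library totals ran from 20704611 to 38065726 counts, and the 3 U2OS-AsiSI siINTS11 libraries were the shallowest group. INTS11 itself, counted over its whole span on chromosome 1 (GRCh38, 1311585 to 1324691, minus strand), gave 10.1, 8.88 and 10.1 CPM (counts scaled to library size) in U2OS with siCtrl and 7.86, 7.07 and 7.18 with siINTS11. In U2OS-AsiSI the 3 siCtrl libraries had 9.64, 11 and 9.83 CPM, against 9.01, 9.34 and 9.49 with siINTS11. The groups did not overlap in either line, but only the U2OS difference of -0.39 (log2) passed the test (edgeR adjusted p = 0.000149; U2OS-AsiSI -0.13, adjusted p = 0.151). The interaction for INTS11 was 0.25 (SE 0.12, adjusted p = 0.235). An siRNA acts on finished RNA, so nascent reads over the gene are a weak check of the knockdown, which was not measured otherwise here. ESR1, the oestrogen receptor gene, did not pass between the lines with siCtrl (0.05 log2, adjusted p = 0.73). Its counts, shared with an overlapping gene on its strand, therefore do not mark the fusion. Osteoblast markers, 10 measured of 15, summed to 1587 to 1628 CPM in U2OS with siCtrl and 1026 to 1079 with siINTS11, and to 1345 to 1411 and 924 to 959 CPM in U2OS-AsiSI. Markers of other lineages, 5 measured of 12, summed to 12.3 to 13.3 and 19 to 20.8 CPM in U2OS and to 12.2 to 13.6 and 18.6 to 18.9 CPM in U2OS-AsiSI. Both sums moved with siINTS11 in both lines, and their part in the results was not tested. Among defining osteoblast genes RUNX2 was high, SP7 did not reach the count filter and BGLAP was at 0 counts.

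Of 21521 genes tested, 832 (3.87%) responded to siINTS11 differently in the 2 lines at an edgeR quasi-likelihood adjusted p under 0.05. Of these, 164 (0.762%) were higher and 668 (3.1%) lower in U2OS-AsiSI. The differences were small: the median size among the 832 was 0.31 (log2), 70 reached 1.5-fold and 20 reached 2-fold. For comparison, 66.5% of genes were called for siINTS11 within U2OS-AsiSI and 65.3% within U2OS, comparisons that enter the interaction directly. Most genes were thus called for the siRNA in each line, and the plot of the 2 effects shows the called genes in narrow bands to either side of equality. Among the 668 lower genes, 205 fell in both lines, 166 were called only as a fall in U2OS-AsiSI, 139 only as a rise in U2OS, 102 rose in both and 56 fell in U2OS-AsiSI while rising in U2OS. The 164 higher genes comprised 50 called only as a rise in U2OS-AsiSI, 43 that rose in both, 35 called only as a fall in U2OS, 21 that fell in both and 15 that rose in U2OS-AsiSI while falling in U2OS. Protein-coding genes made up 699 of the calls (4.89% of those tested) and lincRNAs 57 (2.3%).

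**Figure D1:**
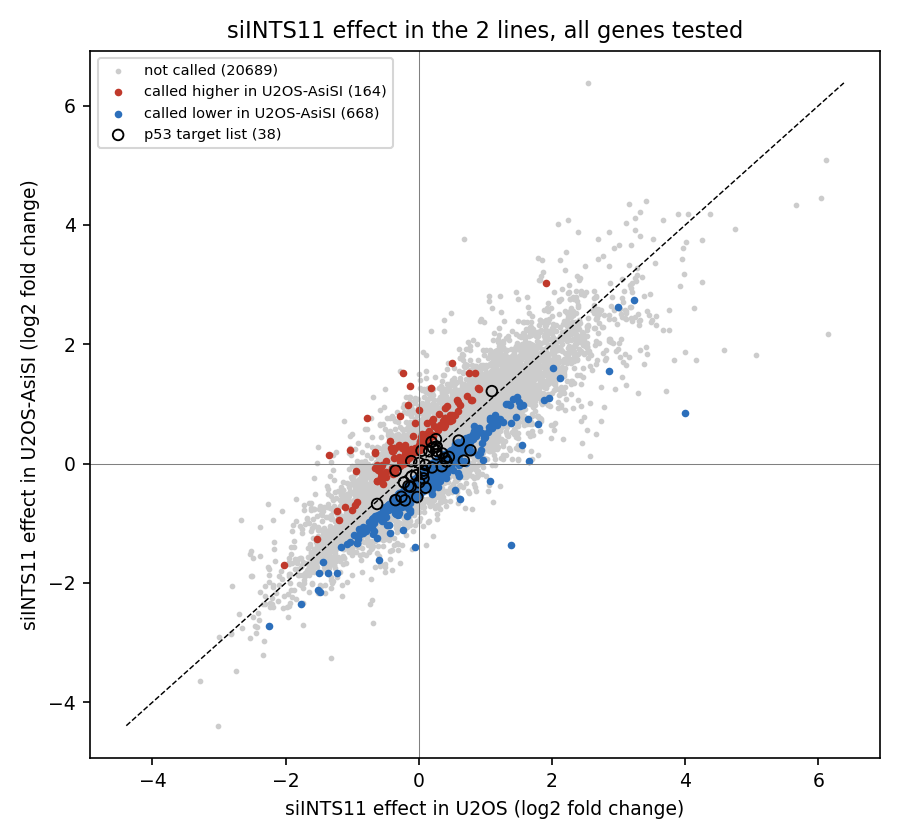
Log2 change from siCtrl to siINTS11 in U2OS (horizontal) and U2OS-AsiSI (vertical) for the 21521 genes tested; red and blue points are the 164 and 668 genes called higher and lower in U2OS-AsiSI, black rings the 38 p53 target genes, and the dashed line marks equal change. Called genes lie off the dashed line on either side, and ringed p53 targets sit close to 0 on both axes, mostly below the line.

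The balance of higher and lower calls moved with the scaling, and it turned with the count filter and without 1 library. With TMM scaling 80.3% of calls were lower in U2OS-AsiSI, with the median gene at -0.05. That share was 60.4% with median-of-ratios scaling, 70.5% with library totals, 65.1% with scaling from genes sparse in reads, 33% when genes had to reach a mean count of 50, and 43.4% with no count filter. Leaving out U2OS siCtrl replicate 3 gave 351 calls, 46.4% of them lower, with the median gene at 0.01. A set of 389 genes was called under TMM and all 3 other scalings, 135 higher and 254 lower. Of these, 156 were also called in each of the 12 fits that left out 1 library, 31 higher and 125 lower. Single genes and families are therefore given below with the number of these 12 fits that called them, where it bears on the result. The 12 fits called 286 to 946 genes in all, so the calls left in a list are to be read beside these totals.

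The p53 target genes responded less upward, or more downward, to siINTS11 in U2OS-AsiSI. Of 38 measured members, 16 were called lower (background 3.1% of all genes) and 0 higher (background 0.762%), with a list median of -0.185 beside -0.05 for all genes. Over 22 alternative settings the list median stayed between -0.27 and -0.12, and 8 to 15 members were called. The 16 calls became 8 without U2OS-AsiSI siINTS11 replicate 3, a fit that called 306 of 21838 genes, against 832 of 21521 with all libraries. They became 10 without any 1 of U2OS siCtrl replicate 1, U2OS siCtrl replicate 3, U2OS siINTS11 replicate 2, U2OS siINTS11 replicate 3 and U2OS-AsiSI siCtrl replicate 1. These latter fits called 286 to 502 genes in all. In the control state the list stood higher in U2OS-AsiSI than in U2OS by a median of 0.28 (log2), with 28 members called higher (background 17%, of 33.8% called in all) and 0 lower (background 16.7%). With siINTS11 that median was 0.11, with 19 higher (background 17.2%, of 41.3% called in all) and 6 lower (background 24.1%). Within U2OS-AsiSI, siINTS11 raised 14 members (background 34.4%) and lowered 15 (background 32%), and within U2OS it raised 18 (background 36.5%) and lowered 7 (background 28.9%). The summed level of the 38 genes was 2681 to 2866 CPM in U2OS with siCtrl and 2716 to 2846 CPM with siINTS11. In U2OS-AsiSI it was 3013 to 3245 CPM with siCtrl and 2835 to 3006 CPM with siINTS11, so the ranges of the lines came closer under siINTS11. Since the siCtrl libraries enter both the line difference and the interaction, these values describe 1 pattern.

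**Figure D2:**
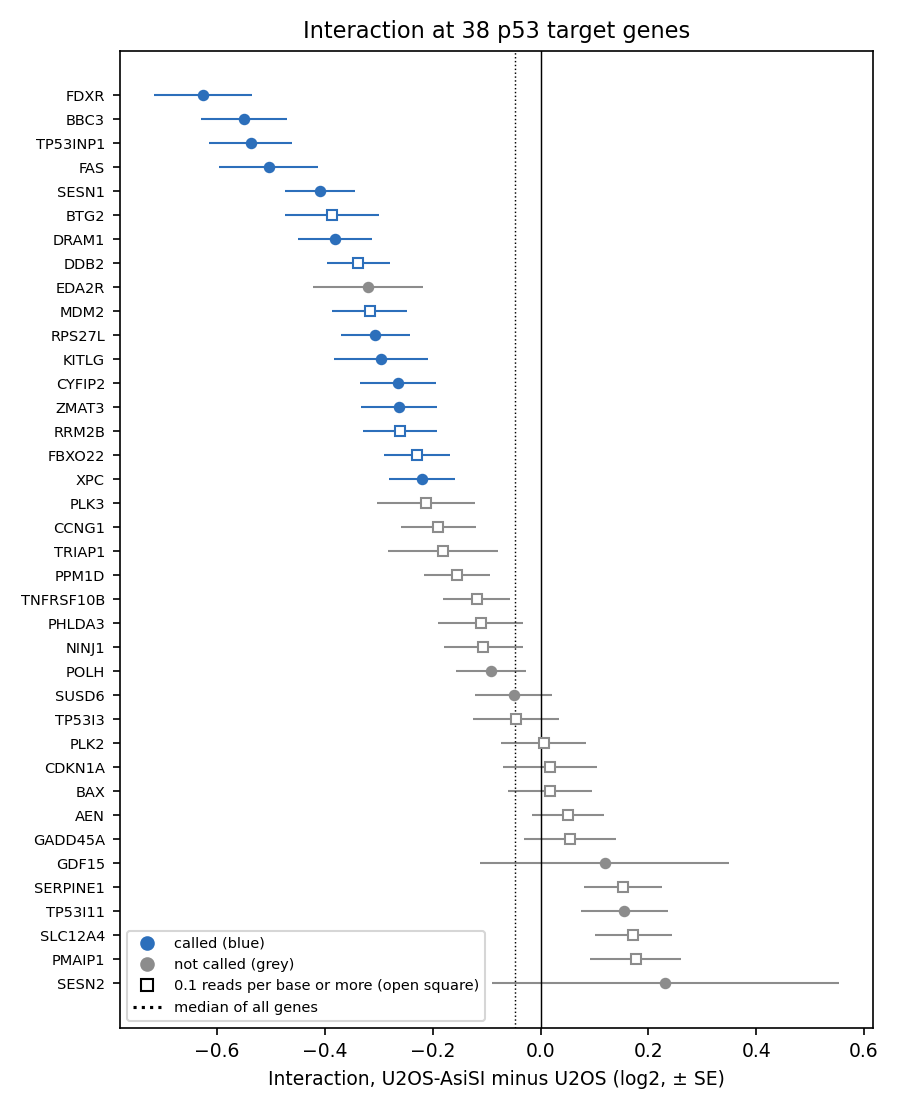
Interaction (log2, U2OS-AsiSI minus U2OS) with its SE for each of the 38 p53 target genes tested; blue marks genes at adjusted p under 0.05, open squares genes with 0.1 or more reads per base of span, and the dotted line the median of all genes. The 16 blue genes all lie left of 0, and most genes near or right of 0 are open squares.

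FDXR, which encodes mitochondrial ferredoxin reductase (chromosome 17, 74862497 to 74873031, minus strand), showed the largest difference of the list. Its 3 libraries read 15.1, 16.2 and 18.3 CPM in U2OS with siCtrl and 26.6, 26.9 and 25.8 with siINTS11. In U2OS-AsiSI it read 35.7, 30.2 and 33.3 CPM with siCtrl and 32.8, 33.5 and 36.3 with siINTS11. FDXR thus rose under siINTS11 in U2OS without overlap, while in U2OS-AsiSI, where it already stood higher, the groups overlapped. The interaction was -0.63 (SE 0.09, edgeR adjusted p = 0.000153). BBC3, the cell-death activator PUMA (chromosome 19, 47220822 to 47232766, minus strand), rose in both lines but by less in U2OS-AsiSI. It went from 21.6, 19.9 and 21.3 CPM to 33.6, 38.9 and 34.7 in U2OS, and from 38.4, 35.7 and 39.2 to 42.9, 45.5 and 43.8 in U2OS-AsiSI. The interaction of BBC3 was -0.55 (SE 0.08, adjusted p = 0.000153), and no groups overlapped within a line. DRAM1, a lysosomal protein of autophagy, and DDB2, a sensor of ultraviolet damage, also rose in U2OS, with interactions of -0.38 (SE 0.07) and -0.34 (SE 0.06).

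TP53INP1, a stress-induced cofactor of p53 (chromosome 8, 94925972 to 94949378, minus strand), reached the same sign by a fall in U2OS-AsiSI. It read 34.5, 36.8 and 37.2 CPM in U2OS with siCtrl and 33.6, 36.1 and 37.2 with siINTS11. In U2OS-AsiSI it fell from 44.5, 41.0 and 45.6 CPM to 28.4, 28.7 and 31.6, below every U2OS library. Its interaction was -0.54 (SE 0.08, adjusted p = 0.000153). FAS, a death receptor, did not pass in U2OS, at 25.1 to 27.1 CPM with siCtrl and 26.5 to 29.9 with siINTS11. In U2OS-AsiSI it fell from 41.4, 34.1 and 41.7 CPM to 30.9, 30.2 and 27.4, and its interaction was -0.50 (SE 0.09, adjusted p = 0.00192). MDM2, the ubiquitin ligase that restrains p53, fell in U2OS-AsiSI by 0.25 and gave an interaction of -0.32 (SE 0.07, adjusted p = 0.00913). SESN1, a stress-responsive sestrin, fell in both lines, by 0.62 in U2OS-AsiSI and by 0.21 in U2OS (interaction -0.41).

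The 16 called members thus reached a lower value by several routes. RRM2B, FDXR, BTG2, RPS27L and DRAM1 rose in U2OS without passing in U2OS-AsiSI, BBC3 and DDB2 rose in both, MDM2, FAS, TP53INP1 and FBXO22 fell in U2OS-AsiSI without passing in U2OS, and SESN1, ZMAT3, XPC, CYFIP2 and KITLG fell in both. Fits without 1 library called 7 of the 16 every time: FDXR, BBC3, TP53INP1, FAS, SESN1, DRAM1 and DDB2. KITLG, with an interaction of -0.30 and an adjusted p of 0.0497, was called in 3 of those 12 fits. BBC3, FAS, MDM2, SESN1 and DRAM1 overlap another gene on their strand and may share reads with it.

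CDKN1A, the cyclin-dependent kinase inhibitor p21 and a standard readout of p53, was not called. Its 3 libraries read 102, 85.2 and 98.9 CPM in U2OS with siCtrl and 108, 120 and 116 with siINTS11. In U2OS-AsiSI they read 112, 104 and 119 CPM with siCtrl and 131, 147 and 129 with siINTS11. CDKN1A rose by 0.28 and 0.27 in U2OS-AsiSI and U2OS, and the interaction was 0.02 (SE 0.09, adjusted p = 0.943). BAX, a pore-forming death protein, also gave 0.02 (SE 0.08, adjusted p = 0.932). Both have more than 0.1 reads per base, a range where counts did not follow library totals in full, as described below. With the library total as a covariate CDKN1A stood at -0.14 and BAX at -0.09, neither called. Among p53 targets under 0.1 reads per base, the 17 measured had a median of -0.30, with 14 below 0, against -0.11 for the 21 denser ones.

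Of 8 measured non-coding genes tied to p53, 0 lay above 0 and 3 were called lower (percent of all genes called lower 3.1%). This list was chosen after the values were seen and is a description. The same holds for the wider p53 list and for those of clock, actin, ribosome assembly and RNA polymerase II genes below. TP53TG1, a lincRNA on chromosome 7 (87322943 to 87345528, minus strand), read 6.59, 6.36 and 6.21 CPM in U2OS with siCtrl and 5.41, 5.72 and 5.11 with siINTS11. In U2OS-AsiSI it fell from 8.86, 7.61 and 9.98 CPM to 4.02, 3.79 and 4.25. It was the highest group with siCtrl and the lowest with siINTS11, and the interaction was -0.88 (SE 0.15, adjusted p = 0.000665). PINCR, a p53-induced lincRNA on chromosome X, rose from 9.80, 13.8 and 13.0 to 17.9, 19.1 and 18.2 CPM in U2OS. In U2OS-AsiSI it read 18.8, 14.9 and 18.8 CPM with siCtrl and 16.3, 15.5 and 15.2 with siINTS11, for an interaction of -0.74 (SE 0.13, adjusted p = 0.00205). PURPL, which lowers p53 levels, gave -0.30. In a wider list of 60 p53 targets, 12 were lower (background 3.1%) and 0 higher (background 0.762%). Without U2OS siCtrl replicate 3, 6 were called, of 351 over all genes. The list median was then -0.06 in place of -0.12, and the median of all genes 0.01 in place of -0.05. TRIM22, TM7SF3, IKBIP and INKA2 lay between -0.49 and -0.33.

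**Figure D3:**
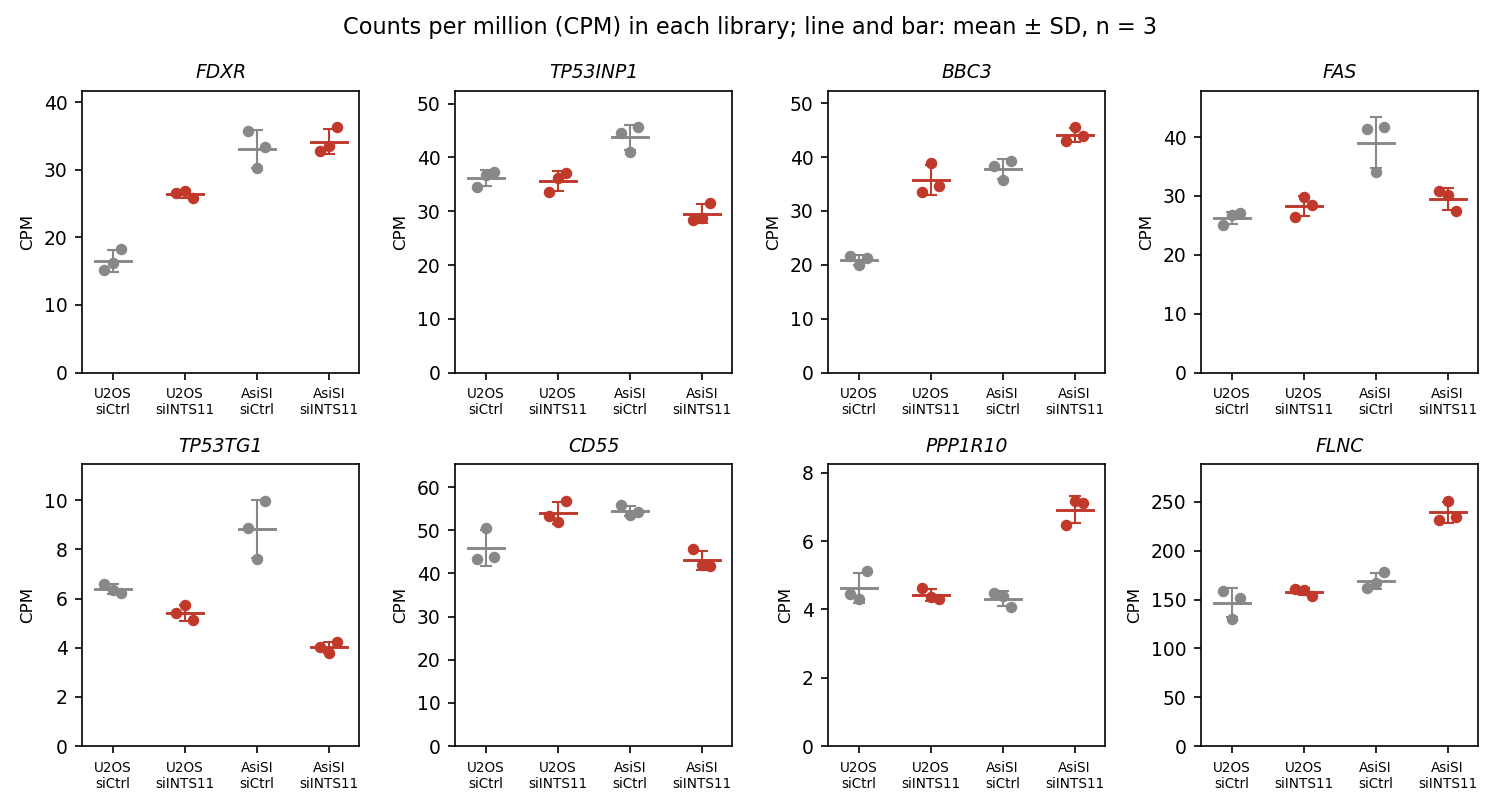
CPM in each library for 8 genes; grey points are siCtrl and red points siINTS11 libraries, horizontal lines are means and bars SDs of 3 libraries, and each vertical axis starts at 0. FDXR rises in U2OS only, TP53INP1, FAS and TP53TG1 fall most in U2OS-AsiSI, CD55 moves in opposite directions, and PPP1R10 and FLNC are highest in U2OS-AsiSI with siINTS11.

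Opposite responses were found at 71 called genes (0.33% of those tested), where siINTS11 passed the threshold in both lines with contrary signs. Of these, 56 fell in U2OS-AsiSI and rose in U2OS, 15 did the reverse, and 27 were called in every fit without 1 library. CD55, a cell-surface inhibitor of complement (chromosome 1, 207321376 to 207386804, plus strand), rose in U2OS from 43.2, 50.6 and 43.9 to 53.4, 52.0 and 56.8 CPM. It fell in U2OS-AsiSI from 55.8, 53.6 and 54.3 to 45.6, 41.9 and 41.6 CPM, so that the order of the lines was exchanged. The interaction of CD55 was -0.57 (SE 0.08, adjusted p = 6.09e-05). SPRTN, a protease that clears proteins crosslinked to DNA, read 27.2, 28.9 and 26.8 CPM in U2OS with siCtrl and 29.3, 31.8 and 31.8 with siINTS11. It fell in U2OS-AsiSI from 33.0, 31.4 and 31.2 to 26.4, 26.7 and 26.3 CPM, with an interaction of -0.43 (SE 0.07, adjusted p = 0.00103). GRB14, an adaptor that inhibits insulin receptor signalling, C12orf45, CCDC3 and the antisense RNA ZNF667-AS1 also fell in U2OS-AsiSI and rose in U2OS, with interactions of -0.63 to -0.35. In the other direction stood FERMT3, the integrin activator kindlin of blood cells, and RASSF4, a member of the RAS-association family. FERMT3 fell in U2OS by 0.39 and rose in U2OS-AsiSI by 0.22, for an interaction of 0.61 (SE 0.12, adjusted p = 0.00387). RASSF4 gave 0.63 (SE 0.12, adjusted p = 0.00354), the lines standing at 19.2 to 27.1 and 13.2 to 13.4 CPM with siCtrl and at 17.8 to 18.4 and 14.9 to 16.2 CPM with siINTS11.

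Inflammatory genes followed the sign of the p53 targets at few members. Among 20 NF-κB targets the median was -0.16, 3 were called lower (background 3.1%) and 0 higher (background 0.762%), and the median lay between -0.21 and -0.06 over the alternatives. Without U2OS siCtrl replicate 3 the list median was -0.06 and 0 were called, of 351 over all genes. The median of all genes was 0.01 in that fit, in place of -0.05. NF-κB is the transcription factor of inflammation and is also switched on by DNA breaks. With siCtrl this list stood 0.54 higher in U2OS-AsiSI than in U2OS, and 0.36 higher with siINTS11. These line differences share libraries with the interaction and describe 1 pattern with it. TNFAIP3, the deubiquitinase that ends NF-κB signalling, rose from 22.8, 21.4 and 17.5 to 37.8, 33.1 and 32.9 CPM in U2OS. In U2OS-AsiSI it rose from 34.0, 33.6 and 37.0 to 42.5, 43.2 and 42.7 CPM, a smaller step from a higher level (interaction -0.45, SE 0.09, adjusted p = 0.00585). BIRC3, an inhibitor of apoptosis, gave -0.54, and BCL3, a nuclear IκB protein, -0.48. Each was called in 9 of the 12 fits without 1 library.

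Interferon-stimulated genes, which encode antiviral proteins, had a median of -0.19 over 25 measured members, with 2 called lower (background 3.1%) and 0 higher (background 0.762%), beside a median of -0.05 for all genes. All 25 were sparse in reads, and most were low: IFIT1 averaged 0.636 CPM and MX1 1.12 CPM in U2OS with siCtrl, with interaction SEs of 0.37 and 0.30. PARP9, which acts with DTX3L in antiviral and break-repair ubiquitylation, read 17.6, 20.2 and 19.1 CPM in U2OS with siCtrl and 18.2, 18.8 and 19.9 with siINTS11. In U2OS-AsiSI it fell from 16.3, 16.4 and 16.1 to 11.5, 11.4 and 12.1 CPM, an interaction of -0.48 (SE 0.09, adjusted p = 0.00347) called in all 12 fits without 1 library. IFIT5 (-0.43, adjusted p = 0.046) was called in 2 of them. DTX3L itself gave -0.27 (adjusted p = 0.0637).

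Genes of the actin cytoskeleton and adhesion were called higher in U2OS-AsiSI more often than any other list examined, though mitochondrial, histone and ribosomal protein genes had larger shares of members above 0. Of 42 members, 12 were called higher (background 0.762%) and 1, PFN2, lower (background 3.1%), with a median of 0.18, or 0.10 with the library total as a covariate and 5 members then called. The 13 calls became 5, with a median of 0.12, without U2OS siCtrl replicate 1, 7 without U2OS siINTS11 replicate 3, 7 without U2OS-AsiSI siINTS11 replicate 2 and 8 without U2OS-AsiSI siCtrl replicate 1. Over all genes these fits called 395, 286, 357 and 429, against 832 with all libraries. FLNC, which crosslinks actin filaments (chromosome 7, 128830377 to 128859274, plus strand), read 159, 130 and 151 CPM in U2OS with siCtrl and 160, 159 and 154 with siINTS11. In U2OS-AsiSI it rose from 162, 167 and 178 to 232, 251 and 235 CPM, without overlap (interaction 0.39, SE 0.07, adjusted p = 0.00314). TPM1, a tropomyosin, fell in both lines but by less in U2OS-AsiSI (-0.21 against -0.52, interaction 0.30). TLN1 and MYH9, talin and non-muscle myosin, fell in U2OS by 0.19 each and were not called in U2OS-AsiSI, at interactions of 0.22 and 0.26. TMOD1, which caps actin filaments, and FMNL1, a formin, gave 0.42 and 0.48 and are sparse in reads. FLNC, TMOD1, FERMT3 and FMNL1 were called in all 12 fits without 1 library, and 21 of the 42 genes have 0.1 or more reads per base.

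RNA polymerase II and its elongation factors showed no common shift, with a median of -0.05 over 42 genes that crossed 0 under other settings, 3 called higher (background 0.762%) and 2 lower (background 3.1%), and 2 to 5 called without 1 library. PPP1R10, the PNUTS subunit that directs phosphatase PP1 to the polymerase at gene ends (chromosome 6, 30600413 to 30618612, minus strand), stood apart. It read 4.44, 4.30 and 5.12 CPM in U2OS with siCtrl and 4.62, 4.35 and 4.31 with siINTS11. In U2OS-AsiSI it rose from 4.48, 4.39 and 4.06 to 6.46, 7.18 and 7.12 CPM, the only group apart from the other 3 (interaction 0.73, SE 0.14, adjusted p = 0.00378). ELL2, an elongation factor, fell in U2OS from 247, 236 and 240 to 181, 174 and 190 CPM. In U2OS-AsiSI ELL2 read 258, 237 and 248 CPM with siCtrl and 245, 237 and 222 with siINTS11, overlapping, for an interaction of 0.33 (SE 0.06, adjusted p = 0.00291). POLR2A, the largest subunit, gave 0.60 (adjusted p = 0.0394) at 2.71 to 4.96 CPM and was called in 3 of 12 fits without 1 library. Among the 17 other Integrator and SOSS subunits, 1 was called (background 3.87%): INTS13 rose in both lines, by 0.27 in U2OS-AsiSI and 0.53 in U2OS (interaction -0.26, edgeR adjusted p = 0.0204). INTS13 was called in 7 of the 12 fits without 1 library, and was not called with median-of-ratios scaling or with DESeq2.

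Ribosome assembly genes, including subunits of RNA polymerases I and III, were called lower at 14 of 51 members (background 3.1%) and higher at 1, FBL (background 0.762%), with a median of -0.10. The 15 calls became 5 without U2OS-AsiSI siINTS11 replicate 3, 7 without U2OS siINTS11 replicate 3, 8 without U2OS siINTS11 replicate 1 and 7 without U2OS siCtrl replicate 3. Over all genes these fits called 306, 286, 359 and 351, against 832 with all libraries. Without U2OS siCtrl replicate 3 the list median was -0.04, and the median of all genes was 0.01 in place of -0.05. Of the 14, 10 rose in U2OS and were not called in U2OS-AsiSI. LYAR, a nucleolar factor of rRNA synthesis, rose in U2OS from 37.1, 37.9 and 37.3 to 49.0, 47.2 and 46.9 CPM. In U2OS-AsiSI it read 50.3, 51.3 and 47.5 CPM with siCtrl and 48.6, 47.7 and 47.8 with siINTS11. The 4 groups of LYAR thus held a low value only in U2OS with siCtrl (interaction -0.40, SE 0.06, adjusted p = 0.000496). RPP40, a subunit of RNase P, and POLR3G, a subunit of RNA polymerase III, gave -0.57 and -0.38. With siCtrl the list stood 0.30 higher in U2OS-AsiSI, with 44 of 51 members called higher (background 17%). With siINTS11 it stood 0.17 higher, with 29 called higher (background 17.2%) and 3 lower (background 24.1%). The line differences and the interaction share libraries, so these values describe 1 pattern.

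Among 17 circadian clock genes, 5 were called lower (background 3.1%) and 1 higher (background 0.762%), with a median of -0.17. Without U2OS siCtrl replicate 3 the 6 calls became 3, of 351 over all genes. PER3, a repressor of the clock, fell in U2OS from 75.6, 85.4 and 81.8 to 70.0, 72.2 and 72.8 CPM. In U2OS-AsiSI it fell from 57.1, 53.5 and 53.2 to 37.1, 37.5 and 36.4 CPM (interaction -0.38, SE 0.07, adjusted p = 0.00103). TEF, a clock-controlled activator, rose in U2OS by 0.35 and was not called in U2OS-AsiSI (interaction -0.50), and PER2 gave -0.36. ARNTL, the activator that PER proteins repress, fell in both lines from 208 to 222 CPM to 109 to 111 CPM in U2OS and from 224 to 243 CPM to 139 to 150 CPM in U2OS-AsiSI. Its interaction was 0.26 (SE 0.06, adjusted p = 0.0124), and ARNTL, PER3 and TEF were called in all 12 fits without 1 library. DBP (-0.60) was called in 1 and BHLHE41 (-0.57) in 4.

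Long genes had lower medians under siINTS11 in both lines, while their median interaction was close to that of all genes. In the 1430 longest protein-coding genes, with a median span of 319.5 kb, the median change was -0.33 in U2OS-AsiSI and -0.26 in U2OS. Their median interaction was -0.07, beside -0.05 for all genes. Without U2OS siCtrl replicate 3 these medians were -0.04 and 0.01. In the 1431 shortest, with a median span of 4.08 kb, the median interaction with all libraries was 0.04, or -0.02 among genes under 0.1 reads per base. The 3576 longest held 25 higher and 152 lower calls (4.95%), and the 3576 shortest 26 and 85 (3.1%). Both sets were drawn from protein-coding genes, of which 4.89% were called, against 3.87% of all genes. Leaving out 1 library gave 60 calls (U2OS siINTS11 replicate 3) to 229 (U2OS-AsiSI siINTS11 replicate 1) among the longest and 32 (U2OS siINTS11 replicate 1) to 170 (U2OS siCtrl replicate 2) among the shortest. SHOC1, a meiotic recombination gene on chromosome 9 (111686173 to 111795008, minus strand), had the smallest adjusted p of the long genes. It fell from 219, 205 and 220 to 72.0, 77.7 and 81.3 CPM in U2OS and from 162, 145 and 160 to 36.6, 33.7 and 34.9 CPM in U2OS-AsiSI. The fall was deeper in U2OS-AsiSI, with an interaction of -0.67 (SE 0.07, adjusted p = 1.77e-06). CD109, a surface co-receptor that limits TGF-β signalling, fell by 1.25 and 0.63 (interaction -0.62, adjusted p = 3.32e-06). FAM13C fell by 1.83 and 1.23 (interaction -0.59). RUNX2, the master regulator of osteoblasts, fell from 429 to 446 CPM to 229 to 261 CPM in U2OS. In U2OS-AsiSI it fell from 311 to 336 CPM to 149 to 162 CPM, with an interaction of -0.26 (adjusted p = 0.0213) called in 5 of 12 fits without 1 library. Zinc-finger ZNF genes, 371 in all, were called lower at 26 (background 3.1%) and higher at 3 (background 0.762%), with a median of -0.11. Their 29 calls became 5 without U2OS siCtrl replicate 3, a fit that called 351 of 21933 genes in all. The list median was then -0.04, and the median of all genes 0.01 in place of -0.05. Leaving out U2OS siINTS11 replicate 3 gave 9 calls, U2OS-AsiSI siINTS11 replicates 3 and 2 gave 10 and 11, U2OS-AsiSI siCtrl replicates 1 and 2 gave 12 and 15, and U2OS siCtrl replicate 1, U2OS siINTS11 replicate 1 and U2OS siINTS11 replicate 2 gave 14, 14 and 18. ZNF485, ZNF74, ZNF79 and ZNF57 gave -0.44 to -0.40.

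The largest single interactions were at genes of few reads. LINC02474, a lincRNA on chromosome 1 (221966341 to 221984964, plus strand), rose from 1.82, 1.5 and 1.62 to 11.9, 13.2 and 10.5 CPM in U2OS. In U2OS-AsiSI it rose from 1.49, 1.38 and 1.72 to 4.26, 4.89 and 4.38 CPM, starting from overlapping levels (interaction -1.30, SE 0.21, adjusted p = 0.000476). ACSBG1, an acyl-CoA synthetase, rose from 1.06 to 1.13 CPM to 3.77 to 4.53 CPM in U2OS. In U2OS-AsiSI it rose from 0.345 to 0.548 CPM to 3.61 to 4.42 CPM, reaching the same range from a lower start (interaction 1.13, SE 0.27, adjusted p = 0.0178). The neighbouring lincRNAs AC006262.2 and IGFL2-AS1, both on the minus strand of chromosome 19 within 46163893 to 46203160, gave -0.71 and -0.70. IGFL2-AS1 rose in U2OS from 19.5 to 20.3 CPM to 31.5 to 34.6 CPM and overlapped in U2OS-AsiSI, at 13.5 to 14.4 CPM with siCtrl and 12.3 to 15.8 with siINTS11. IFFO2, an intermediate-filament family gene, had the smallest adjusted p of the higher genes that are dense in reads. It rose from 133 to 154 CPM to 166 to 168 CPM in U2OS and from 124 to 128 CPM to 209 to 213 CPM in U2OS-AsiSI (interaction 0.53, SE 0.06, adjusted p = 3.32e-06).

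Several families dense in reads had medians above 0, in a range where counts did not follow library totals. Dense genes were not all above 0: the 17 dense genes among 24 G2/M genes had a median of -0.04, and the 21 dense p53 targets -0.11. Reads per base is a gene's mean count in its highest group divided by its span. Between libraries of 1 group, counts grew in step with the library total in genes under 0.1 reads per base, with median slopes (log on log) of 0.98 to 1.09, but with slopes of 0.83, 0.44 and 0.13 in the bins from 0.1 to 0.3, from 0.3 to 0.5 and above 0.5. Whether duplicate reads were removed before counting is not given in the sources used here. The median interaction rose over the same bins to 0.00, 0.17 and 0.23, and 100% of the 69 densest genes lay above 0. The U2OS-AsiSI siINTS11 libraries were the shallowest group. With the log2 library total as a covariate the 2 densest bins stood at 0.02 and 0.03. Thinning all libraries to 1 total gave 0.17 and 0.25. Thinning draws from the counts as deposited and keeps their expected ratios to the totals, so it could not test for an effect of depth.

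**Figure D4:**
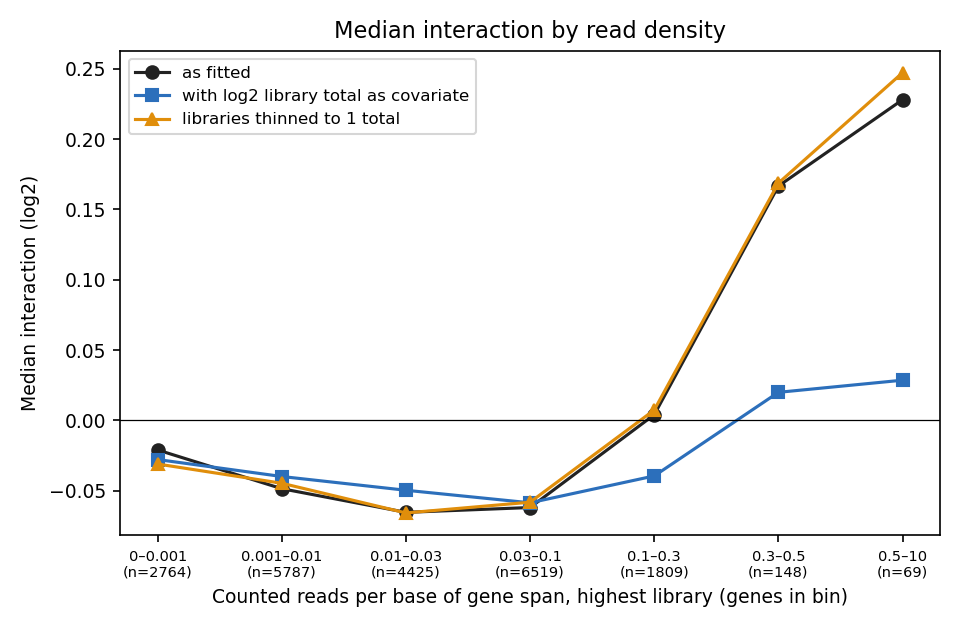
Median interaction (log2) of genes binned by counted reads per base, with genes per bin under each label. Reads per base was taken from the highest group mean, although the axis label reads highest library. Black circles are the values as fitted, blue squares with the log2 library total as a covariate, and orange triangles with libraries thinned to 1 total. Black and orange lines climb to 0.23 and 0.25 in the densest bin, while the blue line ends at 0.03.

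Replication-dependent histone genes had a median of 0.28 over 39 members, 35 of them above 0, and 1, H2AC6, was called (0.27, edgeR adjusted p = 0.0213). Over all genes 3.87% were called, 0.762% higher and 3.1% lower, which is the background for each list in this paragraph. The 7 histone genes under 0.1 reads per base had a median of -0.02, and the covariate brought the list to 0.09. Small nuclear RNA genes of RNA polymerase II, the classical substrates of Integrator, had 0.26 over 6 members (0.10 with the covariate), and 0 were called; all 6 rose under siINTS11 in both lines. RNA polymerase III small RNAs had 0.22 over 11 (0.02 with the covariate). Mitochondrial transcripts had 0.22 over 27, all above 0, which turned to -0.02 with the covariate; their summed count was 11829 to 12027 in every library, whatever its total. Ribosomal protein genes had 0.14 over 79 (0.02 with the covariate), with RPS15 and RPL18 called higher at 0.32 and 0.26 and RPS27L, also a p53 target, lower at -0.31. Other settings called up to 14 histone and 22 ribosomal protein genes. Immediate early genes, which respond to growth signals within minutes, had 0.16 over 38 (0.04 with the covariate). DUSP5 was called higher (0.26) and BTG2, also a p53 target, lower (-0.39), while FOS and EGR1 gave -0.15 (adjusted p = 0.624) and 0.16 (adjusted p = 0.374). With the covariate H2AC6, RPS15, RPL18 and DUSP5 stood at 0.19, 0.20, 0.15 and 0.20 and were no longer called. They were called in 8, 5, 4 and 5 of the 12 fits without 1 library. RPS27L and BTG2 were still called with the covariate, at -0.37 and -0.48, and each in 11 of those fits.

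**Figure D5:**
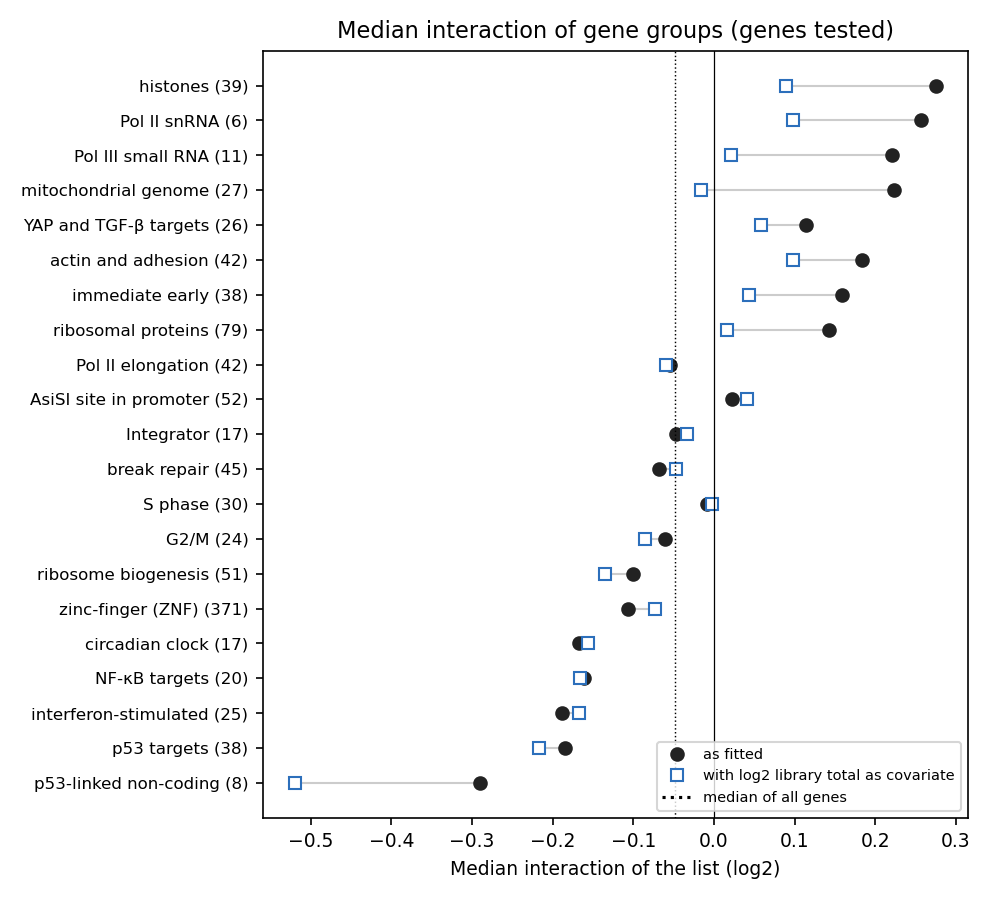
Median interaction (log2) of 21 gene groups, with the number of genes tested in brackets; black circles are the values as fitted, open blue squares those with the log2 library total as a covariate, and the dotted line is the median of all genes. The p53 target, interferon and NF-κB groups stay on the left, and the p53-linked non-coding group moves further left, from -0.29 to -0.52. The groups at the top, most of them dense in reads, move towards 0.

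Genes with an AsiSI site in their promoter were more often lower in U2OS-AsiSI than genes at large, under either siRNA. AsiSI cuts GCGATCGC, a palindrome, and 73 of 35116 RefSeq promoter windows (0.208%; 250 bases before to 50 after the start, GRCh38.p14) contain it. Of 52 such genes measured, 1 was called for the interaction (background 3.87%), ZNF322 (-0.33, edgeR adjusted p = 0.0181). The list median was 0.02, crossing 0 under other settings. The line difference had a median of -0.14 with siCtrl and -0.13 with siINTS11, and 20 of the 52 (38.5%) were called lower in U2OS-AsiSI under both siRNAs, against 13% of all genes tested. The 4 largest falls among these 20 are shown with the site in capitals, 5' to 3' on the gene's strand, to place the cut relative to the start. The lines for KDELR3 and C1orf198 give 30 bases around sites at base 1 and base 28 from the start, and those for LINC01970 and TRIM37 give the 250 bases before it, with the site from base 94 and base 189 of the stretch.
KDELR3, chr22:38468085-38468114, plus strand: ggcgcgcgggtGCGATCGCggagctgtgag
C1orf198, chr1:230868476-230868505, minus strand: ccatggcggcgGCGATCGCggcttcgcgct
LINC01970, chr17:82292815-82293064, minus strand: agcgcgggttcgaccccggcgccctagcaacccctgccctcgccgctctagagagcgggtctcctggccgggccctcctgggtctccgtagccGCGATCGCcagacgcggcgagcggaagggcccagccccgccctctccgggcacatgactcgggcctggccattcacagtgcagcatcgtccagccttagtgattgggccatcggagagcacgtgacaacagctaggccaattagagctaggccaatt
TRIM37, chr17:59106881-59107130, minus strand: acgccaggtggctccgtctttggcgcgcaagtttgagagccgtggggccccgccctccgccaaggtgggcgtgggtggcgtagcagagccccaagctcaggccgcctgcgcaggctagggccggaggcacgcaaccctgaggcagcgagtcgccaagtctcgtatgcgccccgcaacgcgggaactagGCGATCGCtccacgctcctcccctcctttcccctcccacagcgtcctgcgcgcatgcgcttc

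TRIM37, a ubiquitin ligase, averaged 304 ± 10.9 CPM (SD, n = 3) in U2OS and 224 ± 8.75 CPM in U2OS-AsiSI with siCtrl. With siINTS11 it averaged 269 ± 4.03 and 197 ± 2.0 CPM. The line difference was -0.44 (SE 0.04) and -0.45 (SE 0.04), and the interaction -0.01 (SE 0.06, edgeR adjusted p = 0.942). C1orf198 likewise differed by -0.59 and -0.54, with an interaction of 0.05 (SE 0.08, adjusted p = 0.806). KDELR3, a receptor that returns proteins to the endoplasmic reticulum, differed by -0.66 with siCtrl and by -0.26 with siINTS11. It averaged 12.1 ± 1.19 CPM in U2OS with siCtrl, 9.10 ± 0.19 with siINTS11, and 7.72 ± 0.44 and 7.63 ± 0.39 in U2OS-AsiSI. Its interaction of 0.40 (SE 0.12, adjusted p = 0.0534) missed the threshold. Whether a site was cut was not measured here. Break repair and signalling genes, 45 in all, gave 0 calls (background 3.87%) and a median of -0.07, close to the -0.05 of all genes.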

How the data were processed

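The authors counted reads per gene with featureCounts and deposited these counts without scaling, after trimming with Trimmomatic 0.36 and alignment with STAR 2.7 to hg38, per the submitters' processing notes. The order of these steps, the strand setting and any removal of duplicate reads are not given in the sources used here. Counts cover 60583 genes over the whole span, introns included, and 17933 genes overlap another on their strand, so such genes can share or lose reads. Yeast spike-in counts were not used, so a change in total RNA output was not analysed here. Groups and replicate numbers came from the sample titles.

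All 12 libraries entered 1 fit with edgeR 4.0.16 (filterByExpr, TMM scaling, quasi-likelihood test, robust, two-sided), a mean for each of the 4 groups and the interaction as a contrast; the Benjamini-Hochberg adjustment covered all 21521 genes, with 0.05 as threshold. SE is the absolute log2 value over the square root of F, and CPM uses TMM-scaled totals. Read depth limits precision, and reads are not independent molecules. On simulated counts of 21218 genes for this contrast, 96% of 2-fold and 79% of 1.5-fold changes were recovered, and 7.41% of calls were false. The changes were placed only in genes with a mean count of 50 or more, and simulated counts followed library totals in full. These rates therefore do not cover genes dense in reads, genes of lower count or smaller changes. Of the 832 real calls, 70 reached 1.5-fold. Alternatives were other scalings, count filters, a replicate block, DESeq2 1.42.0, thinning, a depth covariate and each library left out.

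The comparison and lists were chosen with earlier results of these data known. Genes named: INTS11; ESR1; the 8 largest interactions each way among genes called under 3 scalings with a group mean of 100 counts and under 0.1 reads per base; up to 4 dense genes each way; up to 6 with opposite effects; and up to 4 called genes per list. Other named genes (among them MDM2, FAS, DRAM1, CDKN1A, BAX, TRIM22, IKBIP, FOS, EGR1, TPM1, TLN1, MYH9 and the promoter genes) were chosen after their values were seen. 1 called gene that the rule names is not reported here. Promoters are from RefSeq, GRCh38.p14, for 17934 matched genes.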

Additional observations from a re-analysis of the deposited data

Results flagged for a closer look

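The 832 genes past the threshold, and the called genes given here, were flagged because the effect of siINTS11 differed between the lines by the interaction test itself; values are log2, U2OS-AsiSI minus U2OS. Higher among sparse genes were ACSBG1 (1.13), LINC00698 (0.83), SEMA7A (0.82), PPP1R10 (0.73), AC021739.5 (0.64), FN3K (0.63), RASSF4 (0.63), FERMT3 (0.61), POLR2A (0.60) and RABL6 (0.57). Lower among them were JAKMIP2-AS1 (-1.33), LINC02474 (-1.30), C12orf42 (-0.91), TP53TG1 (-0.88), SCIN (-0.85), GPC2 (-0.80), PINCR (-0.74), AC006262.2 (-0.71), IGFL2-AS1 (-0.70) and FAM198B-AS1 (-0.69). Dense genes were IFFO2 (0.53), FLNC (0.39), AL606500.1 (0.38), ITPRIP (0.31) and FOSL2 (0.34) above 0, and DDB2 (-0.34), AL353138.1 (-0.33), MIR193BHG (-0.32) and RNF114 (-0.29) below. Opposite effects in the lines flagged ZNF667-AS1 (-0.63), CD55 (-0.57), GRB14 (-0.44), SPRTN (-0.43), C12orf45 (-0.42) and CCDC3 (-0.35).

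Among p53 targets the flagged values were FDXR (-0.63), BBC3 (-0.55), TP53INP1 (-0.54), FAS (-0.50), SESN1 (-0.41), BTG2 (-0.39), DRAM1 (-0.38), MDM2 (-0.32), RPS27L (-0.31), FAM13C (-0.59), TRIM22 (-0.49), TM7SF3 (-0.40), IKBIP (-0.34), INKA2 (-0.33), RNF19B (-0.33) and PURPL (-0.30). Inflammatory genes were BIRC3 (-0.54), PARP9 (-0.48), BCL3 (-0.48), TNFAIP3 (-0.45) and IFIT5 (-0.43). Cytoskeletal and elongation genes were FMNL1 (0.48), TMOD1 (0.42), ANKRD1 (0.34), ELL2 (0.33), TPM1 (0.30), ACTN1 (0.27), MYH9 (0.26), TLN1 (0.22) and LEO1 (-0.23). Clock genes were TEF (-0.50), PER3 (-0.38), PER2 (-0.36) and ARNTL (0.26). Ribosome and Integrator genes were RPP40 (-0.57), LYAR (-0.40), POLR3G (-0.38), WDR12 (-0.32), INTS13 (-0.26), RPS15 (0.32) and RPL18 (0.26). Long and short genes were SHOC1 (-0.67), AVPI1 (-0.63), CD109 (-0.62), LPCAT4 (-0.49) and TBC1D4 (-0.45). Non-coding and zinc-finger genes were LINC01173 (-0.47), LINC01151 (-0.44), LINC00578 (-0.44), EDIL3-DT (-0.39), ZNF485 (-0.44), ZNF57 (-0.43), ZNF74 (-0.42), ZNF79 (-0.40) and ZNF322 (-0.33). Other called list members were HOXA3 (-0.50), LSS (-0.48), CA12 (-0.37), CDC25C (-0.36), NEK2 (-0.34), RUNX2 (-0.26) and PSAT1 (-0.22) below 0, and VLDLR (0.34), HOXB7 (0.30), H2AC6 (0.27) and DUSP5 (0.26) above.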

How the results depend on the processing

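The number of genes called moved from 832 to 447 with median-of-ratios size factors, 525 with scaling from sparse genes, 394 with DESeq2, 545 among sparse genes alone, 530 after thinning and 332 with the library total as a covariate. Genes higher in U2OS-AsiSI moved from 164 to 379 with no count filter, 441 at a mean count of 50 and 62 with the covariate. Genes lower moved from 668 to 270, 415 and 342 under median-of-ratios, library totals and sparse-gene scaling, 291 with no filter, 217 at a mean count of 50, 254 with DESeq2, 371 among sparse genes, 411 after thinning and 270 with the covariate. Without 1 library the calls ran from 286 (U2OS siINTS11 replicate 3) to 946 (U2OS siCtrl replicate 2), the higher from 66 to 237 and the lower from 163 to 709. Counts of calls by library left out were 395, 946 and 351 for U2OS siCtrl replicates 1 to 3, 359, 502 and 286 for U2OS siINTS11, 429, 404 and 783 for U2OS-AsiSI siCtrl, and 935, 357 and 306 for U2OS-AsiSI siINTS11. The cause was not tested. With the covariate ESR1 stood at -0.0643, CDKN1A at -0.143 and BAX at -0.0903. Without 1 library CDKN1A ran from -0.036 to 0.0946, BAX from -0.0158 to 0.0713 and FOS from -0.266 to 0.0153.

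With the replicate block 531 genes were called, 103 higher and 428 lower. Of 18 pairs of libraries that share a number, 2 had deviations correlated above 0.1 (median -0.04), so the numbers were not taken as pairs.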
